A study of Homo sapiens with 9 samples.

Results

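Genomic regions bound by ectopic ERG were compared with those bound by endogenous ETS1 in RWPE-1, a line of immortalised human prostate epithelial cells that does not form tumours. Both were mapped by chromatin immunoprecipitation and sequencing (ChIP-seq), which recovers DNA fragments attached to a chosen protein and reports the places where they pile up as peaks. The members were chosen by list: all peaks of the ERG list (8.44% of the series) and of the ETS1 list (7.95%), together 4494 of the 27416 peaks in 6 lists, or 16.4%. ERG was a FLAG fusion expressed from a retrovirus and precipitated with a FLAG antibody. ETS1 was precipitated with an antibody against ETS1 itself, from RWPE-1 cells given no retrovirus. The other lists came from RWPE-1 with an antibody against GABPA (29.4% of the peaks), RWPE-1 with retroviral FLAG-ETV1 and the FLAG antibody (31.9%), and the metastatic prostate carcinoma line PC3, with no retrovirus, with antibodies against ETV4 (11.5%) and JUND (10.8%). Each list came from 1 library. No difference below could therefore be set against replicate error, no p-value is given, and ectopic expression, the antibody and the factor cannot be told apart. Each range in parentheses is a 95% Wilson interval of a share or a 95% Newcombe interval of a difference, and covers counting error only.

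ERG and ETS1 belong to the ETS family, whose members bind DNA through the winged-helix ETS domain at sites with a GGA core. ETS1 acts downstream of Ras/MAPK signalling and often binds beside partners such as RUNX and AP-1 proteins. ERG is normally expressed in endothelial and blood-forming cells and is switched on in prostate tumours when a rearrangement places it under the control of the androgen-responsive gene TMPRSS2. GABPA is a broadly expressed ETS protein found at many promoters of housekeeping genes. ETV1 and ETV4 are relatives in the PEA3 subfamily and are also rearranged in prostate cancer. JUND is a subunit of AP-1, a dimer that binds its own sites, frequently next to ETS sites.

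ERG and ETS1 occupied largely separate regions. They overlapped by at least 1 bp at 221 places, each formed by exactly 1 peak of each list, called shared regions here. These were 9.55% of the ERG peaks (8.42 to 10.8%) and 10.1% of the ETS1 peaks (8.94 to 11.5%). The remaining 2093 ERG peaks and 1959 ETS1 peaks are called ERG-specific and ETS1-specific. A peak counted as specific may still hold the other factor below the authors' threshold, since the lists give no peak strength. The shared percentage of ETS1 peaks fell with the order in which the files list their rows. Each list was cut in row order into 5 parts of near-equal size, with the other list kept whole. From part 1 to part 5, 14.0% (11.0 to 17.6%), 10.8%, 10.6%, 8.26% and 7.11% (5.05 to 9.92%) of the ETS1 peaks were shared. For ERG the parts lay between 8.42% and 10.4%, without such a fall. The cause was not tested.

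The paired peaks of a shared region mostly lay over each other. The overlap had a median of 356 bp and a range of 5 to 486 bp, in lists whose median peak widths were 482 bp for ERG and 490 bp for ETS1. Only 13 of the 221 regions (5.88%) had an overlap of 100 bp or less. The midpoints of the paired peaks were a median of 131.5 bp apart, and 87 pairs (39.4%, 33.2 to 45.9%) lay within 100 bp. ERG peaks that overlapped FLAG-ETV1 had midpoints within 100 bp in 43.1% of 720 pairs (39.5 to 46.7%). For ETS1 with GABPA the value was 42.5% of 207 pairs (35.97 to 49.3%). Both values lie inside the interval of ERG with ETS1. For ERG with ETV4 of PC3 it was 49.8% of 207 pairs (43.0 to 56.5%), and with JUND of PC3 48.7% of 193 (41.7 to 55.7%). ERG with GABPA had 32.4% of 225 pairs (26.7 to 38.8%). ETS1 had 45.8% of 371 pairs with FLAG-ETV1, 34.5% of 58 with ETV4 and 43.5% of 46 with JUND. All of these intervals overlap that of ERG with ETS1.

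The other factors were distributed unequally over the shared, ERG-specific and ETS1-specific regions, and each factor had its own pattern. GABPA was found at 54 of the 221 shared regions, or 24.4% (19.2 to 30.5%). It was found at 8.36% of the ERG-specific peaks (7.25 to 9.62%) and 7.86% of the ETS1-specific peaks (6.75 to 9.14%). GABPA was therefore more frequent where both proteins were present, by 16.1 percentage points over ERG-specific peaks (10.7 to 22.2) and 16.6 points over ETS1-specific peaks (11.2 to 22.7). Between the specific classes it differed by 0.50 points, with an interval from -1.19 to 2.18. The sign of the small difference varied when both files were cut in row order, whose meaning the labels do not give. When only the rows up to the middle of both files were compared (upper rows), the difference was -2.62 points (-5.23 to -0.043), with GABPA more frequent at ETS1-specific peaks. With the remaining rows (lower rows) it was 3.42 points (1.16 to 5.68), with GABPA more frequent at ERG-specific peaks. Both files were cut before classing, so a peak whose partner lay in the other rows counted as specific. Of the 221 shared regions, 61 remained in the upper and 46 in the lower rows. The specific classes of each cut thus also hold peaks of shared regions, where GABPA was more frequent. The part of this in the change of sign was not tested.

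FLAG-ETV1 was graded over the classes. It was found at 129 shared regions, 58.4% (51.8 to 64.7%), at 28.3% of the ERG-specific peaks (26.4 to 30.3%) and at 12.6% of the ETS1-specific peaks (11.2 to 14.2%). The gap between the specific classes was 15.7 points (13.2 to 18.1). FLAG-ETV1 and FLAG-ERG share the expression system and the antibody, and the part of these in the gap was not tested. When the FLAG-ETV1 list was reduced to every 4th peak in genomic order, to bring it near the size of the ERG and ETS1 lists, the gap was 2.57 points (1.31 to 3.85) and the share of shared regions 13.1%. Such thinning lowers every overlap share by construction, and with it the gap. The fall is therefore no measure of how much of the gap comes from list size.

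JUND of PC3 was about as frequent at shared as at ERG-specific regions, and less frequent at ETS1-specific regions. JUND was found at 19 shared regions, 8.60% (5.57 to 13.0%), and at 8.36% of the ERG-specific peaks (7.25 to 9.62%), a difference of 0.24 points with an interval from -3.04 to 4.81. At ETS1-specific peaks it was found in 1.43% (0.99 to 2.06%), which was 6.93 points below the ERG-specific peaks (5.66 to 8.27). Among shared regions the JUND share differed with the deposited row order. It was 3.28% (0.90 to 11.2%) of the 61 regions where both peaks came from the upper rows. Of the 46 where both came from the lower rows it was 17.4% (9.09 to 30.7%), and the intervals overlap.

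The ETV4 list of PC3 was highest at shared regions. It was found at 31 of them, 14.0% (10.1 to 19.2%), at 8.50% of the ERG-specific peaks (7.38 to 9.78%) and at 1.38% of the ETS1-specific peaks (0.95 to 1.998%). The shared regions exceeded the ERG-specific peaks by 5.52 points (1.36 to 10.8) and the ETS1-specific peaks by 12.6 points (8.63 to 17.9). The ETV4 share also differed with row order. It was 9.84% (4.59 to 19.8%) of the 61 shared regions with both peaks in the upper rows. Of the 46 with both in the lower rows it was 28.3% (17.3 to 42.5%), and the intervals overlap. Shared regions with a peak in each part were left out. Both PC3 proteins together were present at 6.79% of the shared regions, 4.16% of the ERG-specific peaks and 0.41% of the ETS1-specific peaks.

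**Figure D1:**
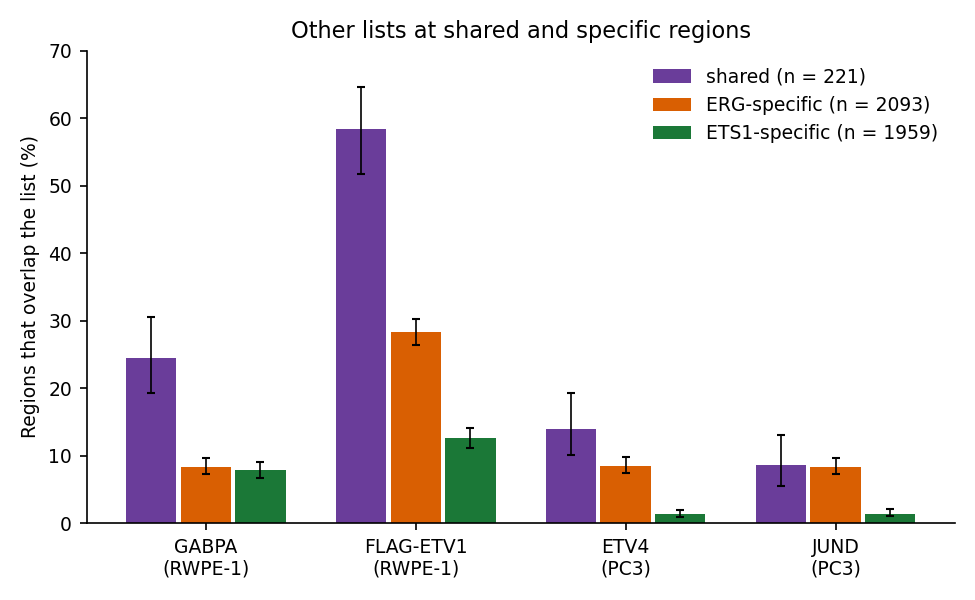
Percentage of shared regions (purple), ERG-specific peaks (orange) and ETS1-specific peaks (green) that overlap each of the other lists, with 95% Wilson intervals as error bars. GABPA stands out only at shared regions (24.4% against 8.36% and 7.86%), whereas JUND is at about the same level in shared and ERG-specific regions (8.60% and 8.36%) and at 1.43% of ETS1-specific peaks.

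A shared region is the union of both peaks and had a median width of 615 bp, against 481 bp for ERG-specific and 489 bp for ETS1-specific peaks, which by itself gives more room for overlap. When each shared region was cut to the extent of its ERG peak, GABPA was at 22.6%, FLAG-ETV1 at 57.9%, ETV4 at 13.1% and JUND at 8.14% of the shared regions. Cut to the ETS1 peak, the shares were 23.98%, 56.1%, 14.0% and 8.14%.

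Read in the other direction, the same counts gave an asymmetry between ERG and ETS1. It restates the excess of ETV4 and JUND at ERG-specific over ETS1-specific peaks and is no further result. Of the 58 ETS1 peaks that overlapped ETV4, 31 were shared with ERG, or 53.4% (40.8 to 65.7%), against 8.95% of the 2122 without ETV4 (7.81 to 10.2%). Of the 46 ETS1 peaks that overlapped JUND, 18 were shared with ERG, 39.1% (26.4 to 53.5%), against 9.51% of those without JUND (8.34 to 10.8%). In the ERG list the differences were smaller. ETS1 was at 14.0% of the ERG peaks with ETV4 (9.93 to 19.4%) and 9.11% of those without, a difference of 4.90 points (0.62 to 10.4), and at 9.33% of the ERG peaks with JUND (5.98 to 14.3%) and 9.57% of those without. For JUND the ERG difference was -0.24 points, with an interval from -3.84 to 4.83.

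With the other ETS lists of RWPE-1, sharing was higher in both directions. This largely restates the excess of GABPA and FLAG-ETV1 at shared over specific regions and is no further result. ETS1 was at 22.2% of the ERG peaks with GABPA (17.3 to 28.1%) and 8.19% of those without (7.09 to 9.44%). ERG was at 25.6% of the ETS1 peaks with GABPA (20.1 to 32.0%) and 8.51% of those without (7.36 to 9.83%). With FLAG-ETV1 the shares were 17.8% against 5.83% of ERG peaks and 33.4% against 5.36% of ETS1 peaks.

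**Figure D2:**
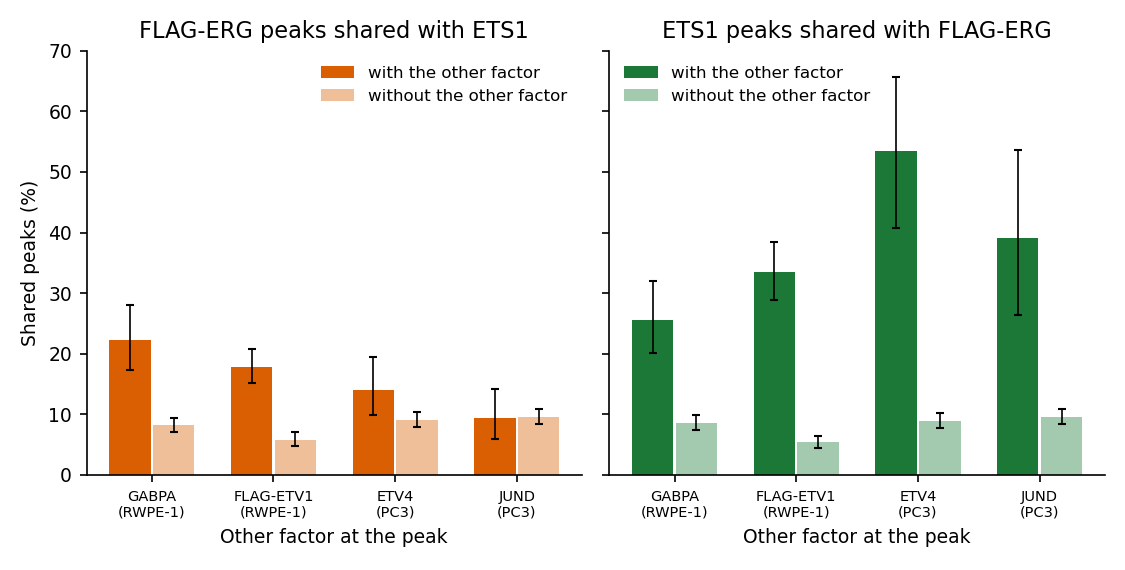
Percentage of FLAG-ERG peaks shared with ETS1 (left) and of ETS1 peaks shared with FLAG-ERG (right), for peaks with (dark) and without (light) each other factor; error bars are 95% Wilson intervals. ETS1 peaks with ETV4 or JUND were shared with ERG in 53.4% and 39.1% of cases, against 8.95% and 9.51% without. ERG peaks were shared with ETS1 in 14.0% of cases with ETV4 and 9.11% without, and in 9.33% with JUND and 9.57% without.

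The 16 possible combinations of the other 4 lists summarise the classes. No other list was present at 60 shared regions (27.1%), 1252 ERG-specific peaks (59.8%, 57.7 to 61.9%) and 1575 ETS1-specific peaks (80.4%, 78.6 to 82.1%). ETS1-specific peaks were thus the most isolated class, by 20.6 points over ERG-specific peaks (17.8 to 23.3). Of the combinations with at least 1 other list, FLAG-ETV1 alone was the most frequent in each class, with 75 shared regions (33.9%), 408 ERG-specific peaks (19.5%) and 188 ETS1-specific peaks (9.60%). The next of these was GABPA with FLAG-ETV1 among the shared regions (34, or 15.4%), but GABPA alone among the ERG-specific (90, or 4.30%) and ETS1-specific peaks (102, or 5.21%). ETV4 with JUND and nothing else was at 46 ERG-specific and 5 ETS1-specific peaks. FLAG-ETV1, ETV4 and JUND together were at 39 ERG-specific and 3 ETS1-specific peaks.

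The excess of PC3 factors at ERG-specific peaks was present in peaks with and without FLAG-ETV1. With FLAG-ETV1, JUND was at 70 of 592 ERG-specific peaks (11.8%, 9.47 to 14.7%) and at 5 of 247 ETS1-specific peaks (2.02%, 0.87 to 4.65%). Without FLAG-ETV1, it was at 105 of 1501 (6.995%, 5.81 to 8.40%) and 23 of 1712 (1.34%, 0.90 to 2.01%). ETV4 without FLAG-ETV1 was at 6.73% of the ERG-specific and 0.99% of the ETS1-specific peaks. Among ERG-specific peaks, the shares of both PC3 factors were lower with GABPA than without, with intervals that do not overlap. JUND was at 4 of 175 ERG-specific peaks with GABPA (2.29%, 0.89 to 5.73%) and at 8.92% of the 1918 without (7.72 to 10.3%). It was at 0 of 154 ETS1-specific peaks with GABPA, which allows a share of up to 1.95%, and at 1.55% of the 1805 without (1.08 to 2.23%). ETV4 was at 3.43% of the ERG-specific peaks with GABPA (1.58 to 7.28%) and 8.97% of those without (7.77 to 10.3%). At ETS1-specific peaks it was the other way, at 3.25% with GABPA (1.39 to 7.37%) and 1.22% without (0.81 to 1.84%), with overlapping intervals. Among peaks with GABPA, the classes differed in ETV4 by 0.18 points, with an interval from -4.34 to 4.45.

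Named regions were those present in the most lists, by position on hg18. The files give no gene names, and no annotation of that build was used. Of the shared regions, 10 were in 5 lists and 0 in all 6. By position the first were chromosome 1, 93939607 to 93940332, and chromosome 1, 150287043 to 150287750, both bound by ERG, ETS1, FLAG-ETV1, ETV4 and JUND. The third, on chromosome 3 at 130362603 to 130363190, had GABPA in place of JUND. Among ERG-specific regions, 1 carried all 4 other factors, on chromosome 1 at 59087134 to 59087784. It was followed by chromosome 1, 16372448 to 16373294, and chromosome 1, 17486471 to 17487107, with FLAG-ETV1, ETV4 and JUND. No ETS1-specific region carried all 4. The first with 3 were chromosome 3, 197498748 to 197499371 (FLAG-ETV1, ETV4 and GABPA), and chromosome 10, 81908142 to 81908740 and 104395659 to 104396521 (FLAG-ETV1, ETV4 and JUND).

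The chromosome shares of ERG and ETS1 peaks differed on a minority of chromosomes. The ratio of the shares was past 1.5-fold on 5 of 23 chromosomes (21.7%), with ERG higher on 1 (4.35%) and ETS1 higher on 4 (17.4%). The interval of the difference left out 0 on 7 of 23 (30.4%), which adds chromosomes 2 and 5 to these. The chromosomes are not independent, since a higher share on one lowers the others. Summed over chromosomes, 11.0% of one list would have to be placed on other chromosomes to match the other. The same measure was 10.5% for ERG with FLAG-ETV1, 10.5% for ETS1 with FLAG-ETV1, 12.4% for ETS1 with GABPA and 22.6% for ERG with JUND of PC3.

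The gene-dense chromosomes 19 and 22 held fewer ERG than ETS1 peaks. Chromosome 19 had 98 ERG peaks (4.24%, 3.49 to 5.13%) and 176 ETS1 peaks (8.07%, 7.002 to 9.29%), a share 1.91 times higher for ETS1. The surplus lay in the upper rows of the files, where chromosome 19 had 37 ERG and 115 ETS1 peaks. The lower rows had 61 of each. Chromosome 22 had 4 ERG and 17 ETS1 peaks, a 4.51-fold higher share for ETS1 that rests on few peaks. On chromosome 10 the counts were 108 ERG and 156 ETS1 peaks (4.67% and 7.16%, ETS1 1.53 times higher), and on chromosome 7 they were 36 and 60 (1.56% and 2.75%, ETS1 1.77 times higher).

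Chromosome 4 was the one past the threshold towards ERG, with 62 ERG peaks (2.68%, 2.10 to 3.42%) and 34 ETS1 peaks (1.56%, 1.12 to 2.17%), a ratio of 1.72. The call depended on row order, with a ratio of 2.15 in the upper rows and 1.41, below the threshold, in the lower rows. Chromosome 5 followed below the threshold, apart from the small chromosome 21 (27 and 17 peaks, ratio 1.496). It held 223 ERG peaks (9.64%) and 150 ETS1 peaks (6.88%), a ratio of 1.40 and a difference of 2.76 points (1.15 to 4.37). Its ratio was 1.80 in the upper rows and 1.15 in the lower rows. Chromosome 1 held the most peaks of both lists, 347 of ERG (14.996%) and 313 of ETS1 (14.4%), and their shares differed by 0.64 points with an interval from -1.44 to 2.71.

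**Figure D3:**
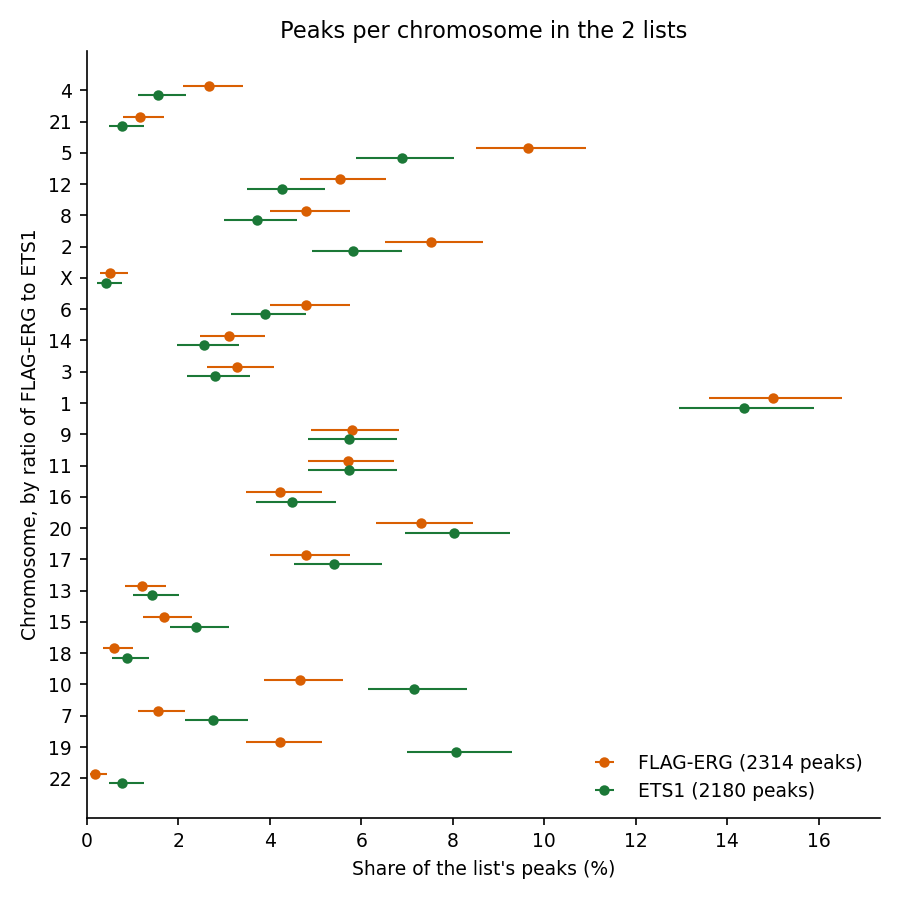
Share of the FLAG-ERG (orange) and ETS1 (green) peaks on each chromosome, ordered by the ratio of the shares, with 95% Wilson intervals. Chromosome 4 (2.68% against 1.56%) lies at the ERG end and chromosomes 7, 10, 19 and 22 at the ETS1 end, while chromosomes 9 and 11 are almost equal.

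The shared regions were spread over 20 chromosomes. Chromosome 20 had the highest share, with 27 of its 169 ERG peaks (15.98%, 11.2 to 22.2%) and 15.4% of its 175 ETS1 peaks. Chromosome 15 had 0 shared among 39 ERG and 52 ETS1 peaks, which allows up to 7.69% of the ERG and 5.77% of the ETS1 peaks. Chromosome 19, rich in ETS1, had 11 shared regions, 11.2% of its ERG and 6.25% of its ETS1 peaks.

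Peaks of both lists were clustered, ERG somewhat more at distances of 10 kb and beyond. Another ERG peak lay within 10 kb of 234 ERG peaks (10.1%, 8.95 to 11.4%), and another ETS1 peak within 10 kb of 135 ETS1 peaks (6.19%, 5.26 to 7.28%). Within 100 kb the shares were 44.6% (42.5 to 46.6%) and 41.3% (39.2 to 43.4%), with overlapping intervals. Within 1000 kb they were 89.5% (88.2 to 90.7%) and 85.4% (83.9 to 86.8%). Within 1 kb they were 0.35% for ERG and 0.46% for ETS1. The median gap to the nearest peak of the same list was 126 kb for ERG and 153 kb for ETS1. After peaks with FLAG-ETV1 were left out of both lists, which left 1594 ERG and 1809 ETS1 peaks, the shares within 10 kb were 6.40% (5.30 to 7.71%) for ERG and 4.86% (3.97 to 5.96%) for ETS1.

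**Figure D4:**
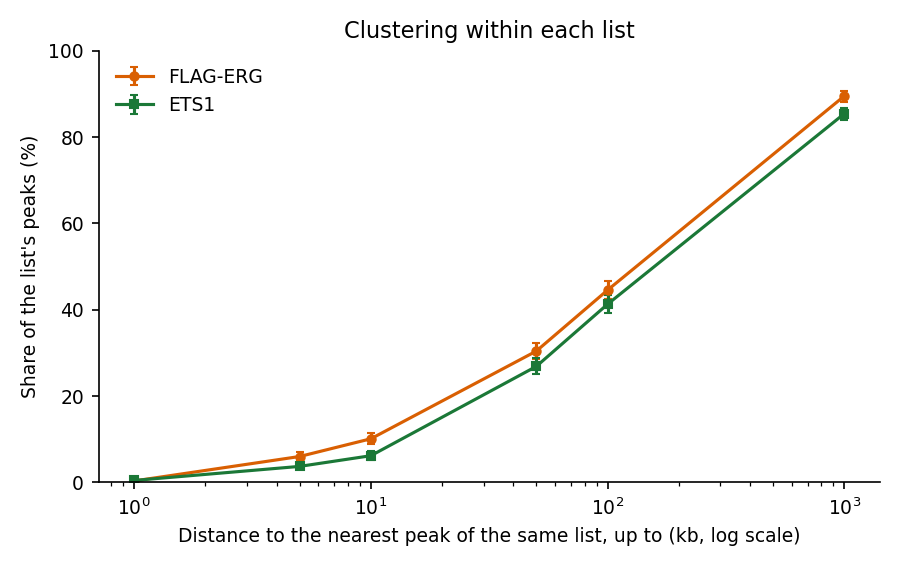
Share of FLAG-ERG (orange circles) and ETS1 (green squares) peaks whose nearest peak of the same list lies within the distance on the x axis (kb, log scale); bars are 95% Wilson intervals. ERG lies above ETS1 at 5 kb (6.01% against 3.72%) and 10 kb (10.1% against 6.19%). The same holds at 100 kb (44.6% against 41.3%, intervals overlapping) and 1000 kb (89.5% against 85.4%). At 1 kb the shares are 0.35% and 0.46%.

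Whether shared regions were more frequent among clustered peaks depended on the list and the distance. ETS1 peaks with a neighbour within 100 kb were shared with ERG in 12.3% of 900 cases (10.3 to 14.6%), and isolated ETS1 peaks in 8.59% of 1280 (7.18 to 10.3%), a difference of 3.74 points (1.15 to 6.45). For ERG peaks the values were 10.6% and 8.73%, with an interval of the difference from -0.56 to 4.32. With a neighbour within 10 kb as the criterion, the ETS1 difference was 1.04 points (-3.44 to 7.57). The ERG difference then had the other sign, -3.02 points (-5.94 to 1.14), with 6.84% of the clustered and 9.86% of the isolated peaks shared.

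Large clusters of one factor usually contained the other, with or without overlap. Peaks of a list were joined into chains wherever the next peak lay within 100 kb. Chains of at least 5 peaks numbered 26 for ERG, of which 24 held an ETS1 peak (92.3%), and 19 for ETS1, of which 17 held an ERG peak (89.5%). Single peaks outside chains overlapped the other list in 8.73% and 8.59% of cases, a smaller stretch of DNA to find one in. The ERG chain with the most peaks lay on chromosome 1 at 199511165 to 199829671, with 13 ERG peaks and 6 ETS1 peaks over 319 kb. None of its ERG peaks overlapped ETS1. A chain begins and ends with a peak of its own list, so ETS1 peaks inside that do not overlap lie between ERG peaks by definition. Here the ETS1 peaks lay 4.17 to 35.0 kb from the nearest ERG peak. For example, the ETS1 peak at 199642655 to 199643134 followed the ERG peak at 199635067 to 199635539. In the second by number of peaks, on chromosome 1 at 200124709 to 200519734, 12 ERG and 6 ETS1 peaks again did not overlap. The third, on chromosome 1 at 202308936 to 202752601, had 12 ERG and 9 ETS1 peaks with 2 shared regions. One of these paired the ERG peak at 202522932 to 202523428 with the ETS1 peak at 202523199 to 202523657.

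The ETS1 chain with the most peaks was without ERG. It lay on chromosome 19 at 49131031 to 49552911, with 13 ETS1 peaks over 422 kb, 0 ERG, 7 GABPA and 2 FLAG-ETV1 peaks, and 0 of ETV4 or JUND. Its 1 Mb window, 49000001 to 50000000, had 14 ETS1 and 3 ERG peaks, the largest surplus of ETS1 of any window. Without that window the chromosome 19 share was still 1.82 times higher for ETS1, with 162 and 95 peaks. The next ETS1 chains by number of peaks were on chromosome 1 at 199277258 to 199643134 and 224829713 to 225036015. They held 12 and 10 ETS1 peaks, of which 1 and 2 were shared, with 9 and 4 ERG peaks inside.

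In windows of 1 Mb, most peaks of each list lay in a window that held the other list, but most windows held only 1 list. Of 1440 windows with a peak of either list, 664 (46.1%) had both, 372 (25.8%) ERG only and 404 (28.1%) ETS1 only. The windows with both held 75.8% of the ERG and 74.9% of the ETS1 peaks. Windows rich in peaks are more likely to hold both lists, and no reference level was computed. Of the 137 windows with 5 or more peaks of either list, 77 (56.2%) had counts at least 2-fold apart, 41 with more ERG (29.9%) and 36 with more ETS1 (26.3%). No interval was computed for single windows, and none is called different here. The largest ERG surpluses after chromosome 8, 142000001 to 143000000 (11 ERG and 2 ETS1 peaks), were on chromosome 5. Its windows at 1000001 to 2000000 and at 131000001 to 132000000 each held 8 ERG peaks and 0 ETS1 peaks. The largest ETS1 surpluses after chromosome 19, 49000001 to 50000000, were chromosome 10, 104000001 to 105000000 (9 ETS1 and 2 ERG peaks), and chromosome 19, 41000001 to 42000000 (7 and 0).

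Near misses, where a specific peak lay within 10 kb of any peak of the other list without overlap, were counted from both lists. They concerned 183 ERG-specific peaks (8.74%, 7.61 to 10.03%) and 173 ETS1-specific peaks (8.83%, 7.65 to 10.2%). Both directions count much the same pairs, in lists of similar size, so similar shares follow largely from the counting. The median gap from a specific peak to the nearest peak of the other list was 187 kb for ERG and 181 kb for ETS1. ERG-specific and ETS1-specific peaks formed 185 pairs with gaps up to 10 kb, or 18.5 pairs per kb of gap, against 11.4 per kb between 10 and 100 kb. The ratio was 1.62. The counts were highest in the first steps, with 33 pairs below 1 kb and 28 from 1 to 2 kb. From 2 to 3 kb there were 9, below the mean of the longer gaps, and then 13 to 18 per kb, above that mean. The 10 kb steps of the longer gaps ranged from 9.6 to 13.5 pairs per kb, so steps of 13 lie within their range. The 221 overlapping pairs exceeded the 185 pairs of specific peaks within 10 kb. The closest near misses were a gap of 16 bp on chromosome 8 (ERG 61726905 to 61727378, ETS1 61727395 to 61727839), 18 bp on chromosome 4 (ERG 47610778 to 47611267, ETS1 47611286 to 47611783) and 36 bp on chromosome 5 (ERG 177789110 to 177789585, ETS1 177789622 to 177790088).

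**Figure D5:**
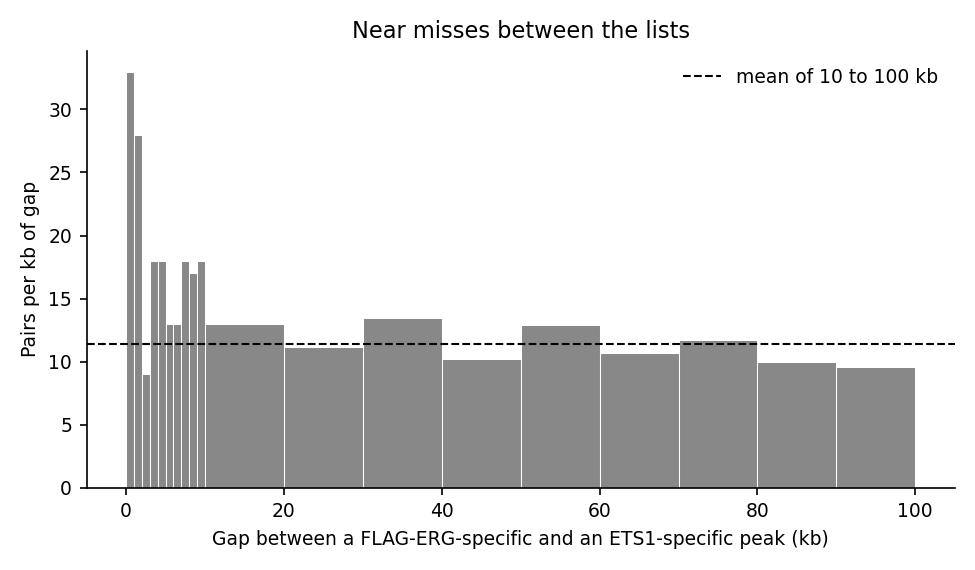
Number of pairs of a FLAG-ERG-specific and an ETS1-specific peak per kb of gap between their edges, in steps of 1 kb up to 10 kb and of 10 kb beyond; the dashed line is the mean between 10 and 100 kb. The first steps, 33 and 28 pairs per kb, are the highest. Of the other steps below 10 kb, 9 pairs were found from 2 to 3 kb and 13 to 18 per kb after it. Steps beyond 10 kb ranged from 9.6 to 13.5 per kb, with a mean of 11.4.

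ERG-specific peaks with a near miss carried the other factors about as often as those without. FLAG-ETV1 was at 28.4% of the near and 28.3% of the far ERG-specific peaks, JUND at 8.74% and 8.32%, ETV4 at 9.29% and 8.43%, and GABPA at 7.10% and 8.48%. Every one of these differences had an interval that included 0. GABPA, present at 24.4% of the overlapping regions, was thus at 7.10% of the ERG-specific peaks (4.20 to 11.8%) that ETS1 missed by up to 10 kb. Among ETS1-specific peaks, FLAG-ETV1 was more frequent at near misses, 18.5% (13.4 to 24.9%) against 12.0% (10.6 to 13.6%), and GABPA was at 5.78% against 8.06%, with an interval of the difference from -5.22 to 2.40.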

How the data were processed

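The Illumina ChIP-seq kit was used for all libraries, per the labels. The authors deposited peak lists with 3 columns, the chromosome, start and end of each called region, on hg18 per the labels. The lists held 2314 (FLAG-ERG), 2180 (ETS1), 8070 (GABPA), 8736 (FLAG-ETV1), 3143 (ETV4) and 2973 (JUND) peaks. No source used here names the aligner, peak caller, control or threshold, so depth and peak strength are unknown. The input and FLAG control libraries were not analysed here. Samples were grouped by title. Starts were read as counted from 0 and are printed from 1. The members, classes, naming rules and alternatives were chosen with earlier results of these data known, and a few alternatives after seeing the data. Named are the 3 regions in the most lists per class, the 3 densest and most unequal 1 Mb windows, the 3 longest chains per list (by number of peaks), the 3 closest near misses and the chromosomes past 1.5-fold, with others beside them for context. On Y, 2 ETS1 peaks enter totals but not the 23 chromosomes compared. The limit beside a count of 0 is 3 counts of the total. Overlap counting was tested on simulated data. Python 3.11.15, numpy 2.4.6, pandas 2.3.3, scipy 1.17.1 and matplotlib 3.10.9 were used.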

Additional observations from a re-analysis of the deposited data

How the results depend on the processing

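Of 167 values recomputed under 20 alternatives, 103 stayed within the interval of the reported value (counts within 1.5-fold) and 64 moved beyond it. The 103 include values that could not change, such as neighbour shares and the chromosome count under another overlap rule. Reversal was possible only for the FLAG-ETV1, ETV4 and JUND differences, whose intervals left out 0, and occurred in 0 cases. The ERG-specific excess over ETS1-specific peaks had an interval above 0 in 8 of 8 alternatives for each of FLAG-ETV1, ETV4 and JUND. Depth and peak strength are unknown, so a stricter threshold could not be set. No paired analysis was possible because each factor has 1 library.

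With a reciprocal overlap of 50%, 7.22% of ERG and 7.66% of ETS1 peaks were shared, near misses were 11.04% and 11.3%, the excess was 12.7 points for FLAG-ETV1, 5.61 for ETV4 and 5.36 for JUND, and FLAG-ETV1 was at 50.9% of shared regions. Without peaks that overlap GABPA, 7.99% of ERG and 8.46% of ETS1 peaks were shared, and 42.1% and 37.4% had a neighbour within 100 kb.

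Fewer peaks leave fewer to meet, which lowers sharing, near misses and clustering by construction. In the upper rows there were 61 shared regions (5.27% of ERG and 5.60% of ETS1 peaks), near misses of 3.92% and 3.98%, and neighbours within 10 kb for 4.84% and 3.03% and within 100 kb for 28.0% and 25.7%. In the lower rows there were 46 (3.98% and 4.22%), near misses of 5.22% and 5.17%, and neighbours for 5.45% and 4.31% and for 26.8% and 27.8%. The FLAG-ETV1 excess was 9.69 points in the upper and 19.8 in the lower rows, and that of GABPA -2.62 and 3.42. For these values, a peak whose partner lay in the other rows counted as specific. ETV4 was at 9.84% and 28.3%, and JUND at 3.28% and 17.4%, of shared regions, with overlapping intervals for each factor. The cause of these differences was not tested.

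With peaks that overlap FLAG-ETV1 left out, 92 shared regions remained (5.77% and 5.09%), near misses were 6.86% and 5.94%, neighbours within 10 kb 6.40% and 4.86% and within 100 kb 35.4% and 35.7%. The excess was 5.73 points for ETV4 and 5.65 for JUND, and 8 chromosomes were past 1.5-fold, with 13, 15 and 18 added towards ETS1. Past 2-fold there was 1 chromosome, 22. With GABPA and FLAG-ETV1 reduced to every 4th peak, which lowers their shares by construction, the FLAG-ETV1 excess was 2.57 points. FLAG-ETV1 was then at 13.1% and GABPA at 4.07% of shared regions.

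Near misses within 1, 5, 50 and 100 kb were 1.62%, 5.21%, 25.7% and 38.5% for ERG and 1.74%, 5.62%, 25.01% and 38.7% for ETS1. Windows of 1 Mb with 5 or more peaks held 29.5% of ERG and 28.1% of ETS1 peaks.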
